A study of Mus musculus with 24 samples.

Results

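The comparison set 6 arrays of mouse embryonic stem (ES) cells titled Hdh knock-out against 3 arrays of the Q20 knock-in line, 9 of the 24 arrays of the series. Hdh is the older name of Htt, the gene of huntingtin, in which a CAG repeat coding for glutamine is expanded in Huntington's disease. All cells were of strain 129/Sv and labelled undifferentiated. The knock-out cells were labelled null for the gene. Q20 carried a targeted allele with 16 repeats, which is in the normal range, and an allele with 7 repeats. The comparison therefore sets the loss of huntingtin against a line that was also gene-targeted but keeps an unexpanded allele. The other 15 arrays served to estimate the spread and to place the values. They were 6 controls with 7 repeats on each allele and 3 arrays each of the knock-in lines Q50 (45 repeats, 43 in replicate 3), Q91 (85 repeats) and Q111 (111 repeats), each with 7 repeats on the other allele. Groups follow the titles and the genotype labels. The description field of the labels has them the other way round. It calls the knock-out arrays control cells and the control arrays cells without the gene. The sources used here do not say whether replicates were separate clones or parallel cultures, and p-values therefore cover only the spread among these arrays. Q20 was 1 line, so its genotype and its history as a line cannot be told apart.

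Huntingtin is a large scaffold protein that binds vesicle and motor proteins, and mouse embryos without it die around gastrulation. Mouse ES cells can hold a naive state, kept by transcription factors such as Esrrb and Klf4 under leukaemia inhibitory factor (LIF), or move toward a primed state like the epiblast after implantation. Genes of the primed state include Fgf5, Pou3f1 and Otx2. Under serum, ES cultures usually mix cells along this range.

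RNA was measured on Affymetrix mouse genome arrays, on which several short probes, together a probe set, measure a transcript. The deposited values are on the log2 scale and were made with GCRMA, which removes background estimated from probe sequence. Of 45037 probe sets other than the manufacturer's controls, 17980 reached a log2 value of 5 on at least 3 of the 24 arrays and were tested with limma, a linear model that shares information on the spread across probe sets. Adjusted p-values are from that limma fit with the Benjamini-Hochberg method over all 17980 probe sets, and a difference is called where the adjusted p is under 0.05. The tested probe sets stood for 9511 genes, each by its brightest probe set. Differences are knock-out minus Q20 on the log2 scale, with their standard error (SE). Log2 values under 5 were not told from background, so where a group lies below 5 the exact size of a difference is not settled. A gene under 5 on all arrays of a group passed the filter only through other arrays, so counts of genes lower in that group lean on the filter. Between 36.8% and 37.3% of probe sets reached 5 on the knock-out arrays and between 37.4% and 38.0% on the Q20 arrays. Arrays of a group correlated across probe sets with r of 0.996 to 0.998 in the knock-out and 0.993 to 0.997 in Q20. The difference between the 3' and 5' Actb probe sets, a sign of RNA integrity, was 0.83 to 1.03 in the knock-out and 0.84 to 0.97 in Q20. Of 15 core pluripotency genes, 14 reached 5 on every knock-out, Q20 and control array, Pou5f1 and Sox2 among them, as their label of ES cells calls for. Knock-out replicates 1 to 3 and 4 to 6 form separate sets: deviations from the group mean correlated from -0.08 to 0.23 within a set and from -0.40 to -0.28 between sets. Q20 replicate 3 often lay apart from replicates 1 and 2, as the values per array show. Precision is limited by how few arrays there are.

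Htt itself did not differ past the threshold. On its brightest probe set (1425969_a_at) the knock-out arrays held 6.67 to 7.39 (median 7.31), against 7.69, 7.25 and 7.68 on the Q20 arrays. The groups overlapped, since Q20 replicate 2 lay below 5 of the 6 knock-out arrays. The difference was -0.32 (95% confidence interval -0.72 to 0.07, limma adjusted p = 0.195), or 79.8% of the Q20 level (interval 60.6% to 105%). An exact permutation test over the 84 ways to split the 9 arrays gave p = 0.202 (two-sided, 0.405 after adjustment over 4 probe sets), where 0.0119 is the smallest p possible. On 1456667_at the means were 6.66 ± 0.30 in the knock-out and 6.44 ± 0.25 in Q20 (SD, n = 6 and 3 arrays), and on 1435539_at 5.52 ± 0.12 and 5.54 ± 0.22. The last probe set, 1446337_at, stayed below 4 on all 9 arrays. A probe set outside the deleted part would still detect a transcript, so these probe sets do not check the genotype. The controls were higher on the brightest probe set, at 7.45 to 8.25, and knock-out minus control was -0.80 there (limma adjusted p = 0.00195). The other knock-in lines were not: their means were 7.40 in Q50, 6.96 in Q91 and 7.22 in Q111, against 7.21 in the knock-out. Knock-out minus those lines was 0.02 (limma adjusted p = 0.918) there, and 0.72 on 1456667_at (limma adjusted p = 1.05e-04). Of 15 neighbours of Htt on chromosome 5, 6 were tested and 3 were lower in the knock-out, against 22.2% of all genes lower. Lrpap1, a chaperone of LDL-receptor family proteins, had log2 values of 10.10 to 10.31 (median 10.18) in the knock-out, against 11.61, 11.60 and 11.66 in Q20, a difference of -1.43. Rgs12, a regulator of G protein signalling, and Nop14, a ribosome assembly factor, differed by -0.67 and -0.36. Leaving out single Q20 arrays ended the call of Rgs12 (limma adjusted p = 0.135 without replicate 1 and 0.0513 without replicate 2). The call of Nop14 ended without Q20 replicate 1 or 3 and without any of knock-out replicates 1 to 4 (adjusted p up to 0.172).

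The knock-out and Q20 differed widely. Of the 17980 probe sets 6575 were called (36.6%), 2775 higher (15.4%) and 3800 lower (21.1%) in the knock-out, and 2073 (11.5%) were called with at least a 2-fold difference. Over genes, 3688 of 9511 were called (38.8%), 1574 higher (16.5%) and 2114 lower (22.2%). Counts of the gene lists below are to be read beside these shares. In 3262 of the called genes (34.3% of all) every knock-out array lay beyond every Q20 array. For 18 genes different probe sets were called in opposite directions. The balance of directions depends on scaling. Higher calls were 42.2% of all calls as deposited, 54.3% with each array centred on its median and 54.4% after quantile normalization, and the median of all probe sets was -0.02 as deposited and 0.06 after either step. Against the controls the knock-out showed 2624 called probe sets (14.6%) and Q20 showed 4539 (25.2%). These comparisons share arrays with the knock-out against Q20, so their values are only set side by side.

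Whole chromosomes stood apart. On chromosome 11 the median gene was 0.70 lower in the knock-out, and 543 of its 801 genes were called lower (67.8%) and 13 higher. On chromosome 14 the median was 0.59 higher, with 221 of 335 genes called higher (66.0%) and 19 lower. On chromosome 1 it was 0.47 higher, with 232 of 526 higher (44.1%) and 30 lower. Together these 3 chromosomes held 1662 genes, of which 63.7% were called, against 32.7% of the 6202 genes on the 14 chromosomes other than 1, 2, 8, 11, 14, X and Y. The medians of those 14 chromosomes lay between -0.10 and 0.02. The chromosomes left out of that set had the largest medians of either sign, so this narrow range follows from the choice. Chromosome 2, left out, had a median of 0.12, with 207 of 767 genes called higher (27.0%) and 95 lower. Chromosome 8 had a median of 0.16, with 116 of 541 genes higher (21.4%) and 44 lower. Chromosome X had a median of -0.24, with 109 of 320 genes lower (34.1%) and 21 higher.

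The chromosome medians separated the arrays as well as the groups. Taken against the mean of the 3 Q20 arrays, chromosome 11 medians were -0.82 to -0.60 on the knock-out arrays, -0.06 to 0.03 on the Q20 arrays and -0.57 to -0.31 on the control arrays. The same measure on chromosome 14 gave 0.49 to 0.72 in the knock-out, -0.03 to 0.05 in Q20 and -0.05 to 0.30 in the controls, and on chromosome 1 it gave 0.34 to 0.58, -0.03 to 0.03 and 0.25 to 0.55. The other knock-in arrays were not alike: chromosome 11 lay near the Q20 level in Q111 (-0.04 to 0.01) but between -0.61 and -0.45 in Q50, and Q91 held both (-0.59 to 0.00). Chromosome 8 split the Q20 arrays themselves, at 0.21, 0.13 and -0.35, while the knock-out arrays lay at 0.12 to 0.27. Copy number was not measured, and its part in these shifts was not tested. Chromosome Y had 3 tested genes, of which 2 were called lower. Uty, a histone demethylase family gene, had 2.25 to 3.91 (median 2.81) in the knock-out, against 8.12, 8.32 and 8.23 in Q20 (difference -5.23). Low Y values were not limited to the knock-out. Against the Q20 mean, Y medians were -3.33 to -3.31 in knock-out replicates 1 to 3 and -5.21 to -5.15 in replicates 4 to 6. Control arrays lay at -3.42 to -1.28. The lowest Q50 array was at -4.47 and the lowest Q91 array at -1.50, but no Q111 array fell under -0.01. Xist, the RNA of X inactivation, was higher by 0.91, a call lost without Q20 replicate 3 (limma adjusted p = 0.0711).

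**Figure D1:**
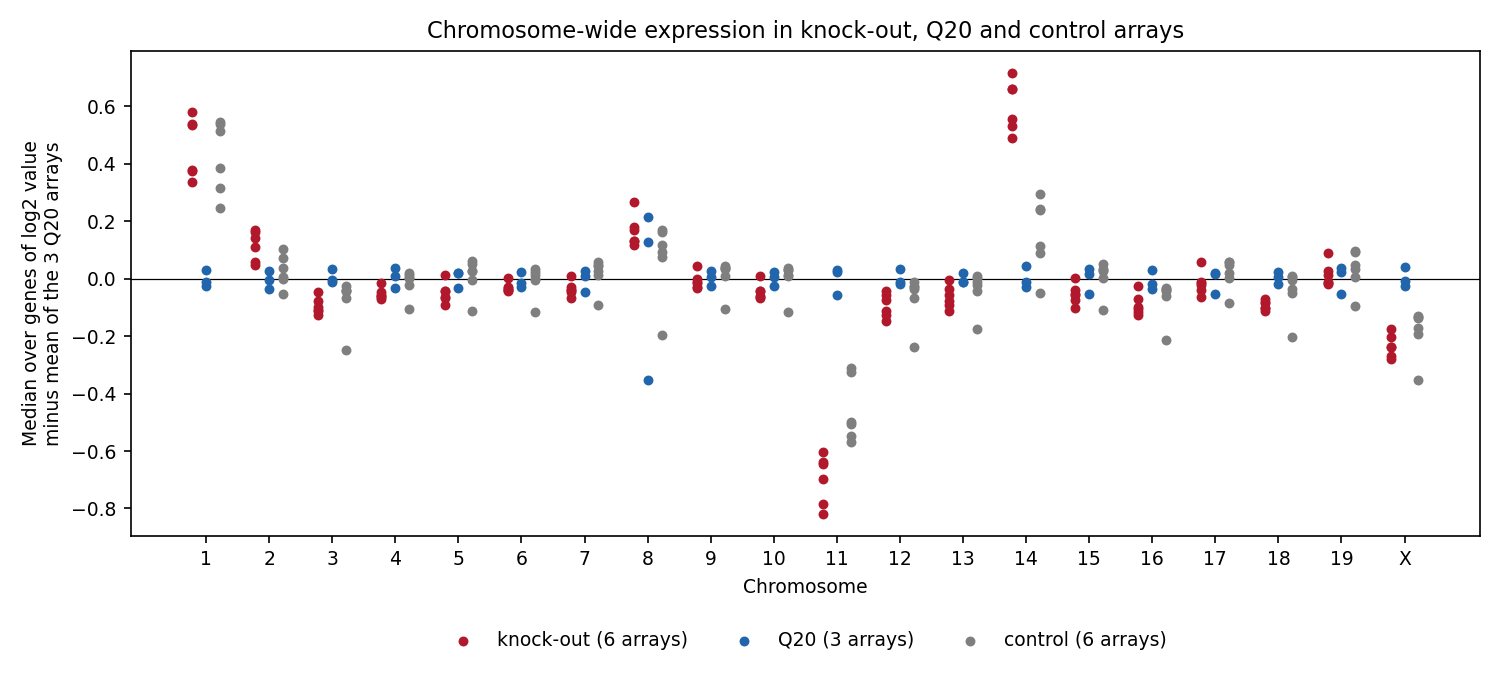
Median over the tested genes of each chromosome of the log2 value minus the mean of the 3 Q20 arrays (y axis), by chromosome (x axis), with 1 point per array for the knock-out (red), Q20 (blue) and control (grey). Knock-out points lie at -0.82 to -0.60 on chromosome 11 and at 0.49 to 0.72 on chromosome 14, and Q20 replicate 3 lies at -0.35 on chromosome 8; chromosome Y is not drawn.

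Along the chromosomes the shifts took different shapes. With the genes of a chromosome ordered by position and cut into 10 equal parts, all 6 knock-out arrays were low along the whole of chromosome 11 and high along the whole of chromosome 14. On chromosome 1 the knock-out sets parted: replicates 1 to 3 lay at 0.39 to 0.55 in the part nearest the start and at 0.01 to 0.13 in the last, while replicates 4 to 6 lay at 0.59 to 0.65 and at 0.37 to 0.40. On chromosome 2 the first 4 parts lay between -0.14 and 0.09 in all 6 arrays. The later 6 parts lay at 0.20 to 0.40 in replicates 1 to 3. In replicates 4 to 6 they lay at 0.15 to 0.20 in the last part, but at -0.0015 to 0.13 in the seventh and -0.00073 to 0.082 in the eighth. The genes named below are given as measured. For some genes and lists the result is also given with every chromosome of every array centred on its median. This step was added after seeing the data, and a result given without it may still change under it. The centring applied to 16164 probe sets and called 5402 of them (33.4%), 3082 higher and 2320 lower, so that 57.1% of calls were higher. Over genes it called 20.4% higher and 14.9% lower.

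**Figure D2:**
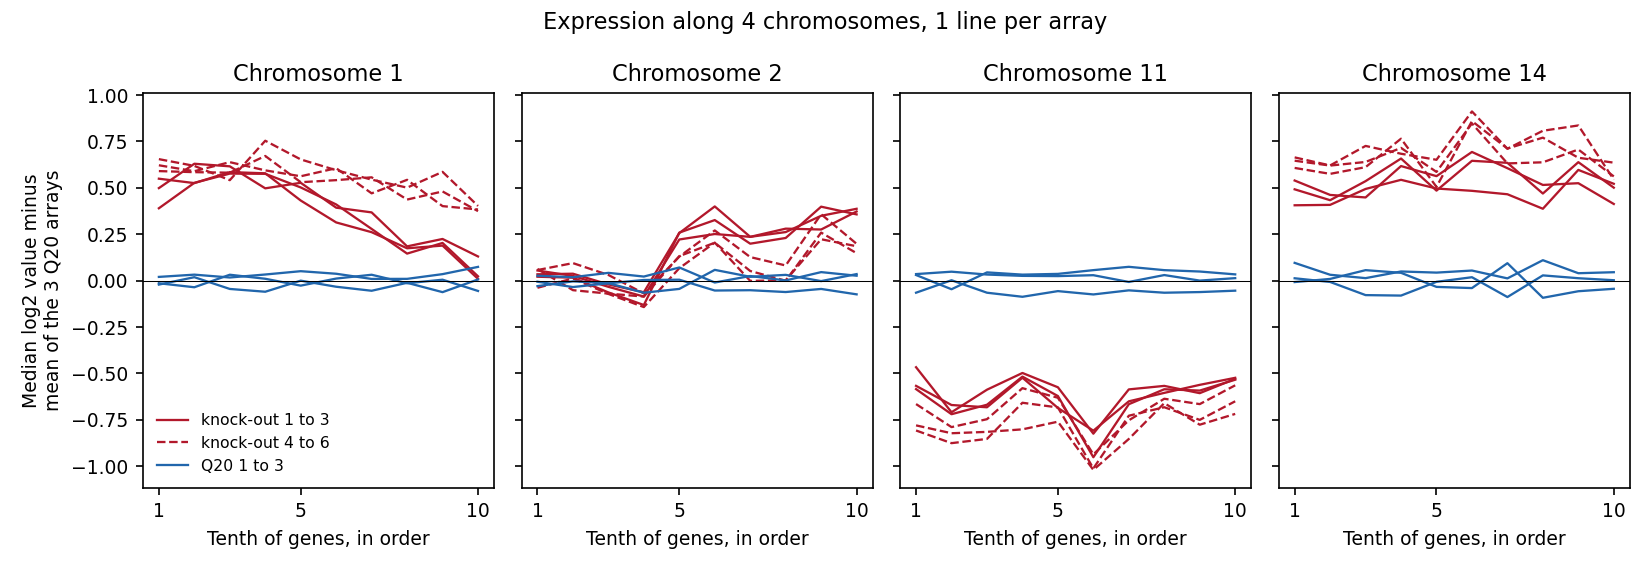
Median log2 value minus the mean of the 3 Q20 arrays (y axis) in 10 equal parts of the genes of chromosomes 1, 2, 11 and 14 in order of position (x axis), with 1 line per array. Knock-out replicates 1 to 3 (solid red) fall to 0.01 to 0.13 at the end of chromosome 1 where replicates 4 to 6 (dashed red) stay at 0.37 to 0.40; Q20 lines (blue) lie near 0.

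The 15 largest falls and the 15 largest rises were taken from genes whose groups do not overlap, so that their separation follows from the choice. The largest single differences were in genes strongly expressed in Q20 and lower in the knock-out. Mest, a paternally expressed imprinted gene of the hydrolase family, had log2 values of 2.83 to 3.73 (median 3.24) in the knock-out, against 12.74, 12.56 and 12.33 in Q20, a difference of -9.27, SE 0.33, limma adjusted p = 7.85e-14. It lay at background on all knock-out arrays and was among the bright genes of the controls (10.67 to 11.49), so that it also set the knock-out apart from controls, by -7.84 (limma adjusted p = 3.85e-14). Nnat, which encodes the small membrane protein neuronatin and is also imprinted, had 2.51 to 3.70 (median 3.13) in the knock-out, against 11.08, 11.30 and 9.16 in Q20 (-7.41, SE 0.96, limma adjusted p = 7.32e-06). The controls resembled the knock-out for Nnat rather than Q20, at 3.57 to 5.90.

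Thbs1, the matrix glycoprotein thrombospondin-1, had 2.56 to 3.01 (median 2.80) in the knock-out and 11.23, 10.75 and 7.64 in Q20 (-7.09, SE 0.75, limma adjusted p = 7.7e-07). Anxa1, the gene of an annexin, which binds phospholipids in the presence of calcium, had 3.43 to 4.63 (median 3.999) in the knock-out, against 11.41, 11.34 and 9.35 in Q20 (-6.68, SE 0.65, limma adjusted p = 3.24e-07). Another annexin gene, Anxa3, had 3.71 to 4.97 (median 4.37) in the knock-out, against 11.88, 11.70 and 7.66 in Q20 (-6.06, SE 0.79, limma adjusted p = 7.24e-06). In all 3 genes Q20 replicate 3 was the lowest of the Q20 arrays. Phldb2, which links the cell cortex to microtubules, had 3.13 to 3.30 (median 3.16) in the knock-out, against 10.45, 10.28 and 5.61 in Q20, and its difference of -5.60 became -7.18 without Q20 replicate 3. Car4, a membrane-bound carbonic anhydrase, had 3.89 to 5.69 (median 5.06) in the knock-out, against 10.34, 10.55 and 10.54 in Q20 (-5.55, SE 0.46, limma adjusted p = 6.38e-08), and here the Q20 arrays lay close together.

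Fmr1nb, the X-linked neighbour of Fmr1 that is expressed in testis, had 4.04 to 5.45 (median 4.43) in the knock-out, against 11.54, 11.43 and 11.58 in Q20 (-6.87, SE 0.68, limma adjusted p = 3.68e-07), with the controls between them at 8.33 to 9.11. Pnma5, an X-linked gene of the paraneoplastic antigen family, had 1.29 to 3.86 (median 2.54) in the knock-out, against 6.83, 6.74 and 10.75 in Q20, where replicate 3 was the highest (-5.55, SE 1.13, limma adjusted p = 0.000628). Tmcc3, a membrane protein of the endoplasmic reticulum, had 3.002 to 3.33 (median 3.07) in the knock-out, against 9.61, 9.55 and 7.52 in Q20 (-5.76, SE 0.53, limma adjusted p = 1.72e-07). The remaining large falls, in Tagln, Gbp2, Gbp2b, Krt19 and Krt8, belong to groups described further on. In 14 of these 15 genes the knock-out mean was under 5, so the size of the difference is not settled. Against the controls, only Mest, Fmr1nb, Gbp2, Anxa1 and Car4 of these 15 were called lower in the knock-out. Knock-out minus control was -0.42 for Thbs1, -0.21 for Tagln, -0.19 for Phldb2 and -0.05 for Gbp2b, none of them called.

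Rises were smaller. Nkx6-3, a homeobox transcription factor known from the stomach, had 7.34 to 8.82 (median 8.11) in the knock-out, against 1.35, 1.53 and 1.39 in Q20 (6.64, SE 0.73, limma adjusted p = 1.07e-06), and the controls had 5.81 to 6.94. Inhbb, which encodes the subunit that forms activin B, had 11.42 to 12.13 (median 11.58) in the knock-out, against 4.52, 5.02 and 6.70 in Q20 (6.29, SE 0.62, limma adjusted p = 3.91e-07). Both were thus expressed in knock-out and control cells and near or under background in Q20, apart from Inhbb in Q20 replicate 3. Grb10, an imprinted adaptor that restrains insulin and growth factor receptors, had 11.13 to 12.05 (median 11.72) in the knock-out, against 8.62, 8.31 and 7.44 in Q20 (3.52, SE 0.70, limma adjusted p = 0.00053), although its chromosome, 11, was low as a whole in the knock-out.

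Mras, a GTPase of the Ras family, had 10.40 to 10.85 (median 10.50) in the knock-out, against 6.92, 7.14 and 7.12 in Q20 (3.48, SE 0.37, limma adjusted p = 8.19e-07). Sfrp1, a secreted inhibitor of Wnt ligands, had 10.23 to 11.29 (median 10.85) in the knock-out, against 7.45, 7.75 and 7.43 in Q20 (3.24, SE 0.34, limma adjusted p = 7.63e-07). Parvb, the focal adhesion protein beta-parvin, had 9.77 to 10.91 (median 10.55) in the knock-out, against 6.76, 6.48 and 8.15 in Q20 (3.40, SE 0.42, limma adjusted p = 3.91e-06). In Parvb, Q20 replicate 3 was the highest of the Q20 arrays. Dixdc1, a positive regulator of Wnt signalling, had 7.22 to 8.45 (median 8.003) in the knock-out, against 4.82, 5.12 and 4.88 in Q20 (3.000, SE 0.42, limma adjusted p = 1.65e-05). Sox1, a transcription factor of early neural cells, had 5.28 to 7.54 (median 6.96) in the knock-out, against 3.34, 3.47 and 3.69 in Q20 (3.11, SE 0.51, limma adjusted p = 8.16e-05).

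Fbxo2, which recognises glycoproteins for degradation, had 8.11 to 8.81 (median 8.36) in the knock-out, against 5.17, 4.87 and 5.35 in Q20 (3.29, SE 0.32, limma adjusted p = 3.34e-07). Kdelr3, a receptor that returns proteins to the endoplasmic reticulum, differed by 3.24, Sgms2, a sphingomyelin synthase, by 2.96 and Kbtbd11 by 3.37. Serpinb6c, a serine protease inhibitor whose probe set may detect close paralogues, differed by 3.47, Igsf21, an adhesion protein of the immunoglobulin superfamily, by 3.20 and Ccdc18 by 3.16. Ccdc18 had 10.82 to 11.15 (median 11.003) in the knock-out, against 7.68, 7.76 and 8.08 in Q20. Q20 means were under 5 in 5 of the 15 rises. For all 30 genes the control mean lay between those of the knock-out and Q20.

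**Figure D3:**
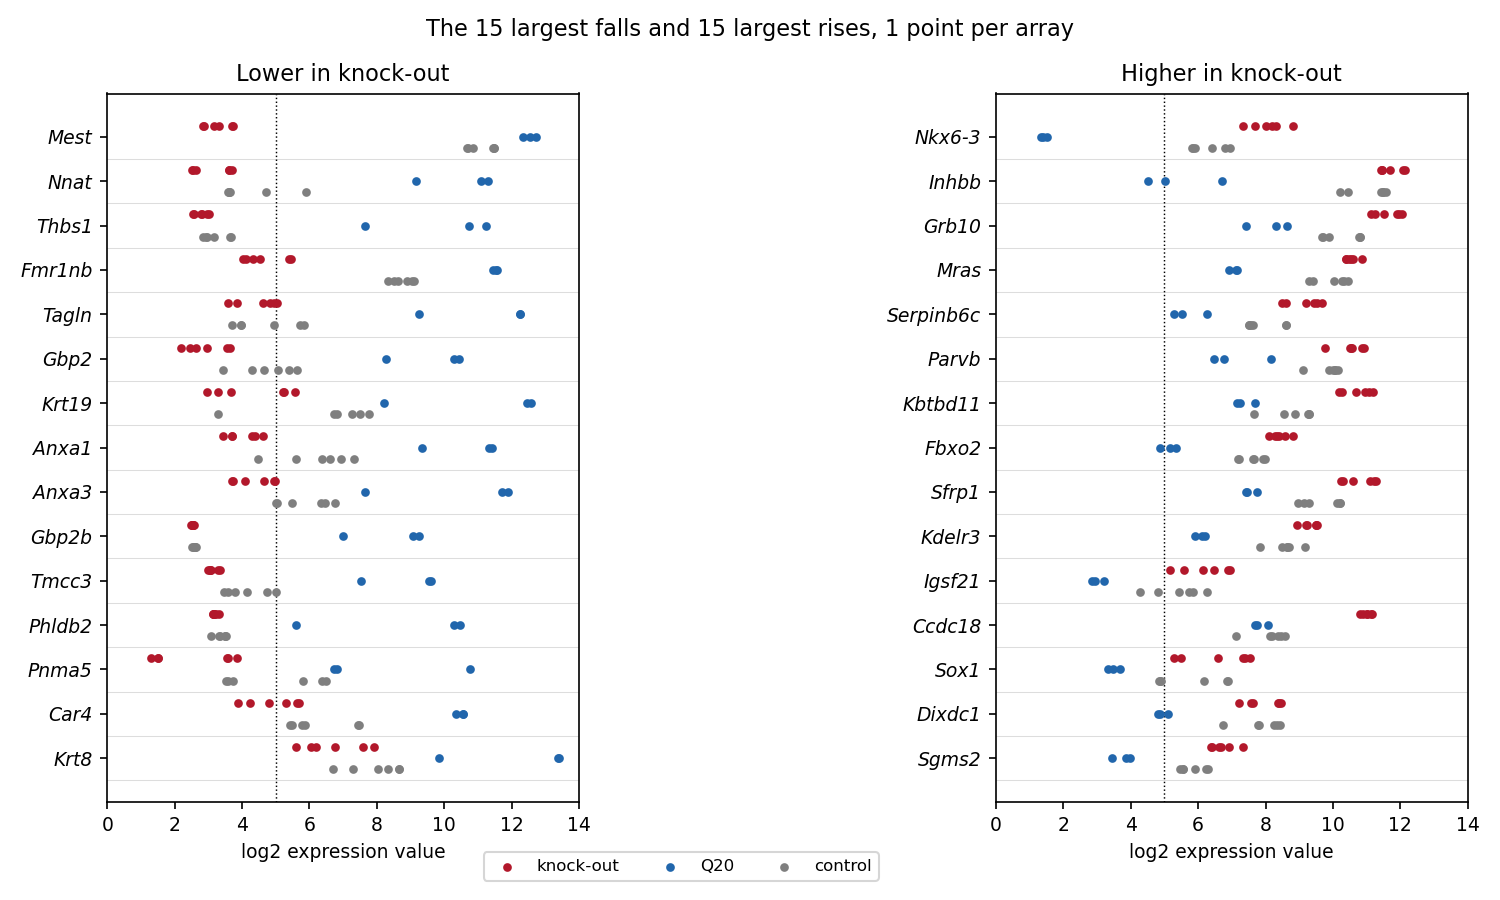
Log2 expression value (x axis) of the 15 largest falls (left) and 15 largest rises (right) with non-overlapping groups, 1 point per array, for the knock-out (red), Q20 (blue) and control (grey), with a dotted line at 5. Mest lies at 2.83 to 3.73 (median 3.24) in the knock-out and at 12.74, 12.56 and 12.33 in Q20, and Q20 replicate 3 is the lowest Q20 point for Thbs1, Tagln, Krt19 and Phldb2.

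Naive pluripotency factors were higher in the knock-out. Of 16 listed, all were tested, 11 were called higher and 2 lower, with a median difference of 1.27 against -0.03 over all 9511 genes tested. Gbx2, a homeobox factor that supports self-renewal, had 10.14 to 11.25 (median 10.87) in the knock-out, against 8.25, 8.58 and 7.79 in Q20 (2.60, SE 0.44, limma adjusted p = 0.000106). Prdm14, which restrains fibroblast growth factor (FGF) signalling and DNA methylation, had 8.57 to 9.46 (median 8.95) in the knock-out, against 5.91, 6.03 and 7.01 in Q20 (2.60, SE 0.46, limma adjusted p = 0.000171). For both, no knock-out array reached down to a Q20 array. Tfcp2l1, a LIF-responsive factor of the naive state, had 12.04 to 12.65 (median 12.39) in the knock-out, against 10.14, 9.89 and 10.60 in Q20 (2.18, SE 0.32, limma adjusted p = 2.48e-05). Klf4, another such factor, had 13.07 to 13.52 (median 13.39) in the knock-out, against 11.26, 11.41 and 11.89 in Q20 (1.82, SE 0.18, limma adjusted p = 3.22e-07). Again no arrays overlapped.

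Esrrb, an orphan nuclear receptor of the naive network, had 12.05 to 12.33 (median 12.28) in the knock-out, against 10.66, 10.54 and 11.31 in Q20 (1.41, SE 0.22, limma adjusted p = 5.37e-05). Tbx3, Tcl1, Nr0b1, Nr5a2, Klf5 and Klf2 were called higher by 2.38, 1.62, 1.37, 1.17, 1.09 and 0.56. Nanog (0.45, limma adjusted p = 0.109), Zfp42 (0.14, adjusted p = 0.339) and Stat3 (0.03, adjusted p = 0.901) did not pass the test as measured, while Nanog and Stat3 passed after centring the chromosomes (0.58, limma adjusted p = 0.0456 and 0.86, limma adjusted p = 5.2e-05). The exceptions were Dppa3, a maternal and germline factor, at 3.35 to 7.52 (median 5.53) in the knock-out, against 10.70, 10.49 and 10.94 in Q20 (-5.22, SE 1.05, limma adjusted p = 0.000592), and Fbxo15 (-0.60). The 6 knock-out arrays spread widely for Dppa3, with replicates 4 to 6 the low ones. The knock-out differed from the controls in only Klf4 of these 16 genes, which was higher (0.58, limma adjusted p = 0.00928; background 16.3% of genes called), while Q20 differed from them in 12, 11 lower and 1 higher (background 26.7%). Over all genes, 7.55% were higher and 8.8% lower in the knock-out than in the controls, and 16.3% were higher and 10.4% lower in Q20 than in them. After centring each chromosome, 11 were higher and 2 lower, with a median of 1.21, but Klf5 (0.46, limma adjusted p = 0.212) and Klf2 (0.39, limma adjusted p = 0.108) were not among them. Single arrays ended the calls of Klf2 (without knock-out replicate 5 or 6 or Q20 replicate 1, 2 or 3, limma adjusted p up to 0.115), Nr5a2 (without Q20 replicate 1, limma adjusted p = 0.0563) and Fbxo15 (without Q20 replicate 1 or 3, limma adjusted p up to 0.104).

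Core pluripotency genes shared by both states moved less. Of 14 tested, 5 were called higher and 1 lower, with a median of 0.21, a share of calls near the 38.8% of all genes. Sox2 had 14.49 to 14.68 (median 14.60) in the knock-out, against 13.82, 13.86 and 14.20 in Q20 (0.63, SE 0.12, limma adjusted p = 0.000266). Pou5f1, the Oct4 gene, had 14.54 to 14.75 (median 14.71) in the knock-out and 14.52, 14.37 and 14.52 in Q20 (0.21, adjusted p = 0.171). Utf1, Sall4, Dppa5a and Fgf4 were called higher by 0.67, 0.36, 0.38 and 0.87. Lin28a, an RNA-binding protein that blocks let-7 maturation and rises on the way to the primed state, was the gene called lower, at 12.22 to 12.41 (median 12.28) in the knock-out, against 13.21, 13.01 and 13.22 in Q20 (-0.85, SE 0.09, limma adjusted p = 5.35e-07). Leaving out 1 array ended the calls of Utf1 (without Q20 replicate 1, limma adjusted p = 0.0521), Sall4 (without Q20 replicate 2, limma adjusted p = 0.126), Dppa5a (without knock-out replicate 1 or Q20 replicate 1 or 2, limma adjusted p up to 0.156) and Fgf4 (without Q20 replicate 1 or 2, limma adjusted p up to 0.139). Sall4 was also not called after centring the chromosomes (0.24, limma adjusted p = 0.171).

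Primed epiblast genes were lower in the knock-out. Of 13 tested, 12 were called lower and 1 higher, with a median of -2.08. Fgf5, the growth factor that defines the primed epiblast, had 2.03 to 2.11 (median 2.07) in the knock-out, against 4.50, 4.75 and 4.63 in Q20 (-2.56, SE 0.53, limma adjusted p = 0.000743), so that it was under 5 on all 9 arrays. Pou3f1, a POU factor that turns on after the naive state is left, had 4.31 to 6.22 (median 5.74) in the knock-out, against 9.55, 9.33 and 9.78 in Q20 (-3.95, SE 0.33, limma adjusted p = 6.57e-08). Otx2, which brings Oct4 to new enhancers in primed cells, had 7.19 to 8.97 (median 8.59) in the knock-out, against 9.55, 9.91 and 11.12 in Q20 (-1.76, SE 0.59, limma adjusted p = 0.0231). The knock-out and Q20 arrays did not overlap in any of these 3 genes, but for Fgf5 both lay where values were not told from background.

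The remaining factors of the list, Zic2, Zic5, Sox3 and Sall2, were lower, at -2.08, -1.72, -1.74 and -1.54. Cdh2, the gene of N-cadherin, had 4.40 to 4.91 (median 4.73) in the knock-out, against 9.28, 9.49 and 7.88 in Q20 (-4.18, SE 0.45, limma adjusted p = 8.19e-07). Fgf5 and Cdh2 lay under 5 on every knock-out array and passed the filter only through other arrays, so the count of 12 lower leans on the filter. Of the 14 listed genes, 7 to 10 reached 5 on a knock-out array and 12 or 13 on a Q20 array. The exception was Tcf15, a basic helix-loop-helix factor of ES cells poised to differentiate, with 10.83 to 11.63 (median 11.41) in the knock-out, against 9.15, 9.08 and 9.42 in Q20 (2.16, SE 0.27, limma adjusted p = 5.03e-06). Otx2, Zic2, Zic5 and Sall2 lie on chromosome 14, whose median was 0.59 higher in the knock-out, and were lower all the same. The call of Otx2 was lost on leaving out 1 array (without knock-out replicate 4 or Q20 replicate 3, limma adjusted p up to 0.148). Against the controls the knock-out was lower in 5 of the 13 and higher in 1, and Q20 was higher in 10 and lower in 1. Over all genes the knock-out was lower in 8.8% and higher in 7.55%, and Q20 was higher in 16.3% and lower in 10.4%. In RNA from whole cultures, fewer primed cells and less RNA per cell cannot be told apart, here or for the groups that follow.

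**Figure D4:**
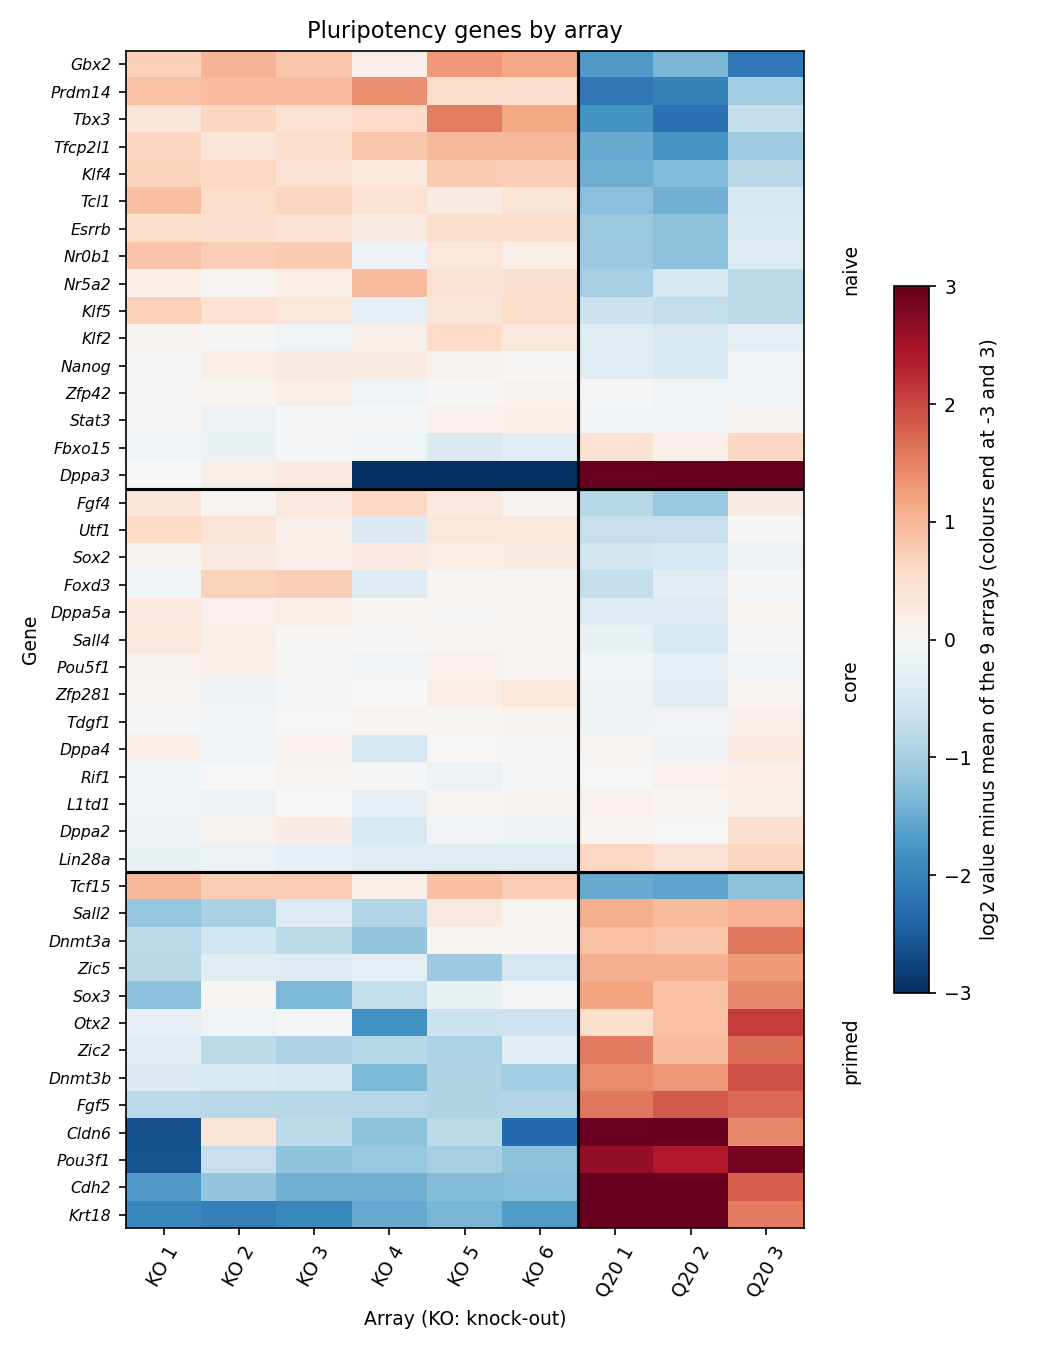
Log2 value minus the mean of the 9 arrays (colour, from -3 in blue to 3 in red) for the tested naive, core and primed genes (y axis) on the 6 knock-out and 3 Q20 arrays (x axis). The 11 naive genes called higher are redder in the knock-out columns, the 12 primed genes called lower are redder in the Q20 columns, and Dppa3 is bluest in knock-out replicates 4 to 6.

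Contractile and actin-binding genes were lower in the knock-out. Of 24 tested, 16 were called lower and none higher, with a median of -0.91. The smooth muscle contractile genes, which in many cells are targets of serum response factor, changed most: all 6 tested were lower, with a median of -3.75. Tagln, the actin-binding protein transgelin, had 3.59 to 5.04 (median 4.72) in the knock-out, against 12.25, 12.25 and 9.25 in Q20 (-6.77, SE 0.68, limma adjusted p = 4.87e-07), and -7.77 without Q20 replicate 3. Myl9, a regulatory light chain of non-muscle and smooth muscle myosin, had 1.95 to 2.16 (median 2.05) in the knock-out, against 7.59, 7.08 and 6.03 in Q20 (-4.84, SE 0.50, limma adjusted p = 5.64e-07). Cnn1, or calponin, had 2.35 to 2.82 (median 2.40) in the knock-out, against 7.48, 7.44 and 5.18 in Q20 (-4.24, SE 0.58, limma adjusted p = 1.32e-05). Q20 replicate 3 held the lowest Q20 value of all 3 genes and every knock-out array lay below it. Myl9 and Cnn1 lay under 5 on every knock-out array and passed the filter only through other arrays, so the count of 6 lower leans on the filter.

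Serum response factor binds the CArG box, a run of A and T between CC and GG. The promoters of 3 called members that hold one within 250 bases before to 50 bases after the start are shown from RefSeq (GRCm38.p6), because Myl9, Acta1 and Cnn2 span the large and the moderate differences of the list; capitals mark the match. They are chr2:156775214-156775513 on the plus strand for Myl9, chr8:123894726-123895025 on the minus strand for Acta1 and chr10:79988350-79988649 on the plus strand for Cnn2.
Myl9: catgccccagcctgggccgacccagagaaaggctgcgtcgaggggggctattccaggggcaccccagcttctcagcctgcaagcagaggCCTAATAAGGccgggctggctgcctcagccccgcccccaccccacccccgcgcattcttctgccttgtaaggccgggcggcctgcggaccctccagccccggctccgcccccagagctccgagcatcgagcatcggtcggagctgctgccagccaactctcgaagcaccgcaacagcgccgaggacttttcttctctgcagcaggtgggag
Acta1: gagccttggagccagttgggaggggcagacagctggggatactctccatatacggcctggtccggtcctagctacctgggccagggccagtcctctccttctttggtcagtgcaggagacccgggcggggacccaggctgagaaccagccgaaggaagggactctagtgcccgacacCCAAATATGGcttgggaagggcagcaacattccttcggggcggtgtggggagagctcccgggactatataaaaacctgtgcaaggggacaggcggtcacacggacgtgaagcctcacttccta
Cnn2: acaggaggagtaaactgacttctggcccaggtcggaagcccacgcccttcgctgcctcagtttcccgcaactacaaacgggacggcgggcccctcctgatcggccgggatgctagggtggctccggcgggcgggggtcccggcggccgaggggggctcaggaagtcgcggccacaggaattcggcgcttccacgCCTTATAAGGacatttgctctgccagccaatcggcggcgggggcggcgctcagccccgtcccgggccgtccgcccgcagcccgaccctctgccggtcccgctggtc
The matches begin 161, 73 and 56 bases before the start. On either strand, 7 of the 22 listed genes with a promoter in the table held a match (Acta1, Cnn2, Fhl1, Fhl2, Myl9, Srf and Vcl), 5 of them among the 15 lower genes with one, against 1.63% of all 32851 promoters. The former counts genes, which can have several promoters, and the latter counts promoters, so they are not on the same scale. A match is not a binding site, and Fhl2 (-0.87, adjusted p = 0.0974) and Vcl (-0.21, adjusted p = 0.513) hold one without having passed the test.

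Acta1, skeletal muscle actin, had 3.70 to 4.20 (median 3.79) in the knock-out, against 9.43, 9.53 and 4.85 in Q20, where replicate 3 was itself under 5 (-4.09, SE 0.94, limma adjusted p = 0.00182). Cnn2, a calponin of non-muscle cells, had 8.68 to 10.03 (median 9.57) in the knock-out, against 11.79, 11.56 and 10.88 in Q20 (-1.995, SE 0.35, limma adjusted p = 0.000148). Zyx, a focal adhesion protein that answers tension, had 5.83 to 6.83 (median 6.37) in the knock-out, against 9.66, 9.69 and 8.16 in Q20 (-2.83, SE 0.41, limma adjusted p = 2.51e-05). Acta2, Tpm1 and Tpm2 were lower, at -3.26, -2.64 and -1.29. In the subgroup of actins and crosslinkers, 5 of 9 were lower, with a median of -0.67. Actb, cytoplasmic beta-actin, was not among them and had 15.31 to 15.50 (median 15.45) in the knock-out and 15.36, 15.34 and 15.20 in Q20 (0.12, adjusted p = 0.438). Srf itself was lower, at -0.69, and its cofactor genes Mrtfa (-0.26, adjusted p = 0.232) and Mrtfb (0.08, adjusted p = 0.801) did not pass the test. With 1 array fewer the calls of Tpm2 (without Q20 replicate 1 or 2, limma adjusted p up to 0.102) and Srf (without knock-out replicate 1, 2, 3 or 4 or Q20 replicate 1, 2 or 3, limma adjusted p up to 0.163) were lost. After centring the chromosomes 14 of the 24 genes were lower and none higher, with a median of -0.99. Of the 9 actins and crosslinkers 3 were then lower, with a median of -0.21. Fhl2 (-1.35, limma adjusted p = 0.0145) and Vcl (-0.84, limma adjusted p = 0.0133) gained a call with this step, while other genes lost theirs. Against the controls the knock-out was called in 1 of the 24 genes, Vcl, which was higher, and Q20 was higher in 16. Over all genes the knock-out was called in 16.3% against the controls, and Q20 was higher in 16.3%.

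Targets of YAP, the transcriptional coactivator that responds to cell shape, included large falls as well. Of 17 tested, 9 were lower and 2 higher, with a median of -0.56. All 3 tested matricellular genes were lower. Ccn2 (connective tissue growth factor) had 7.86 to 8.52 (median 8.09) in the knock-out, against 12.61, 12.48 and 10.86 in Q20 (-3.82, SE 0.35, limma adjusted p = 1.87e-07), and Ccn1 had 7.21 to 8.23 (median 7.502) in the knock-out, against 11.94, 11.90 and 9.39 in Q20 (-3.48, SE 0.51, limma adjusted p = 2.63e-05). F3, or tissue factor, was lower (-3.68, SE 0.52, limma adjusted p = 1.63e-05), as was Amotl2, which binds YAP (-2.81, SE 0.29, limma adjusted p = 5.7e-07). Both lay lower on every knock-out array than on any Q20 array. Yap1 (0.08, adjusted p = 0.623) did not pass the test, its paralogue Wwtr1 was lower, at -0.90, and Tead4, a DNA-binding partner, was higher (1.60, SE 0.26, limma adjusted p = 8.21e-05). Without 1 array the call of Wwtr1 (without knock-out replicate 1, 3, 4, 5 or 6 or Q20 replicate 1 or 2, limma adjusted p up to 0.206) was lost, as it was after centring the chromosomes (-0.69, limma adjusted p = 0.0724).

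Fibroblast markers were followed because ES cells are often grown on feeder cells. Of 20 listed, 7 were tested and 4 were lower. Col1a1, a chain of type I collagen, had 3.43 to 3.70 (median 3.54) in the knock-out, against 8.97, 8.999 and 5.97 in Q20 (-4.42, SE 0.57, limma adjusted p = 6.21e-06). Col5a1, Mmp2 and Col5a2 were lower, at -2.18, -1.84 and -1.72. The call of Col5a2 was lost without Q20 replicate 1 (limma adjusted p = 0.0668) or 2 (0.0631). Between 1 and 3 of the 19 markers on the array reached 5 on a knock-out array, 4 on each Q20 array and 1 to 4 on a control array. A marker under 5 on every knock-out array, such as Col1a1, was tested only through other arrays, so the count of lower markers leans on the filter. Their summed linear signal was 225 to 286 in the knock-out, 395 to 1362 in Q20 and 246 to 402 in the controls. Dcn, Lum, Postn, Lox, Pdgfra and Fap, which define fibroblasts, stayed below 5 on all 9 arrays. The part of feeder cells in the contractile and matrix results was not tested.

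Keratins and junction genes followed the same direction. Of 18 tested epithelial and mesenchymal junction genes, 13 were lower and none higher, with a median of -0.92. After centring the chromosomes 11 were lower and none higher. Krt8, Krt18 and Krt19 encode the keratins of simple epithelia. Krt8 had 5.61 to 7.93 (median 6.47) in the knock-out, against 13.37, 13.41 and 9.84 in Q20 (-5.52, SE 0.78, limma adjusted p = 1.66e-05). Krt18 had 6.95 to 7.63 (median 7.19) in the knock-out, against 13.51, 13.45 and 10.56 in Q20 (-5.26, SE 0.59, limma adjusted p = 1.39e-06). Krt19 had 2.97 to 5.58 (median 4.45) in the knock-out, against 12.57, 12.46 and 8.22 in Q20 (-6.75, SE 1.04, limma adjusted p = 4.34e-05). Q20 replicate 3 was the lowest Q20 array in all 3, and no knock-out array reached the level of replicate 3. The Krt8 probe set may also detect related sequences.

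Claudins form tight junctions, and Cldn6 (-3.69, SE 0.79, limma adjusted p = 0.00105) and Cldn7 (-3.19, SE 0.50, limma adjusted p = 5.05e-05) were lower. Epcam, the gene of an epithelial adhesion molecule that ES cells express strongly, had 12.34 to 12.44 (median 12.37) in the knock-out, against 13.32, 13.27 and 13.21 in Q20 (-0.89, SE 0.18, limma adjusted p = 0.000637). Cdh1, the gene of E-cadherin, had 13.04 to 13.31 (median 13.13) in the knock-out, against 14.05, 14.16 and 13.47 in Q20 (-0.74, SE 0.22, limma adjusted p = 0.0116). Vim, the mesenchymal intermediate filament, was lower as well, at 11.93 to 12.88 (median 12.24) in the knock-out, against 13.89, 14.18 and 13.14 in Q20 (-1.45, SE 0.27, limma adjusted p = 0.00033). Cdh1 and Cdh2 were thus both lower, as were the epithelial regulators Esrp1 (-2.34) and Grhl2 (-0.95). Dropping 1 array ended the calls of Cdh1 (without Q20 replicate 1 or 2, limma adjusted p up to 0.0754) and Grhl2 (without Q20 replicate 3, limma adjusted p = 0.0503). Knock-out replicates 1 to 3 alone gave 10 lower genes of the 18, and replicates 4 to 6 alone also gave 10.

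Signalling pathways were mixed. In the Nodal and activin pathway, whose ligands share SMAD2 and SMAD3, 3 of 16 tested genes were higher and 3 lower. The median was 0.04, and the share of calls was near the 38.8% of all genes. Beside Inhbb, the receptor gene Acvr1b was higher, at 8.94 to 9.17 (median 8.98) in the knock-out, against 7.56, 6.80 and 7.42 in Q20 (1.75, SE 0.27, limma adjusted p = 5.03e-05). The inhibitor Smad7 was higher by 0.88. Fst, the gene of follistatin, which binds and neutralises activins, had 3.39 to 3.98 (median 3.71) in the knock-out, against 9.13, 9.10 and 5.93 in Q20 (-4.34, SE 0.58, limma adjusted p = 9.93e-06). Foxh1, a partner of the SMADs, was lower, at -1.02 and Skil, a repressor of SMAD signalling, by -0.73. Nodal (-0.22, adjusted p = 0.236) and the feedback inhibitors Lefty1 (-0.43, adjusted p = 0.29) and Lefty2 (0.06, adjusted p = 0.878) did not pass the test.

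In the LIF and bone morphogenetic protein (BMP) pathways 5 of 13 were higher and 2 lower, with a median of 0.27, against 38.8% of all genes called. After centring the chromosomes 7 were higher and 2 lower. Bmp4, the ligand that cooperates with LIF in self-renewal, had 11.01 to 11.97 (median 11.69) in the knock-out, against 8.82, 8.61 and 8.86 in Q20 (2.84, SE 0.48, limma adjusted p = 0.000122). It lies on chromosome 14 and kept a difference of 2.22 after centring the chromosomes. Bmpr1a, its receptor gene on the same chromosome, was higher by 0.61 as measured but stood at -0.02 after centring. Socs3, which LIF induces and which dampens its receptor, had 12.99 to 13.36 (median 13.08) in the knock-out, against 11.90, 11.95 and 12.39 in Q20 (1.03, SE 0.12, limma adjusted p = 1.67e-06). The BMP targets went both ways, with Id2 and Id3 lower, at -1.41 and -0.98 and Id4 higher by 1.04. Both lower calls depended on single arrays, Id2 (without Q20 replicate 1 or 2, limma adjusted p up to 0.132) and Id3 (without Q20 replicate 1, limma adjusted p = 0.0659). The receptor genes Lifr (0.27, adjusted p = 0.144) and Il6st (0.19, adjusted p = 0.413) did not pass the test, though Lifr did after centring (0.44, limma adjusted p = 0.0184).

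FGF signalling through ERK drives exit from the naive state. Of its 18 tested genes 5 were higher and 7 lower, with a median of -0.16, against 16.5% higher and 22.2% lower over all genes. After centring the chromosomes 7 were higher and 6 lower. Feedback genes went both ways, with 3 of 7 tested higher and 2 lower. Of the feedback inhibitors, Spred1 had 9.76 to 10.48 (median 10.39) in the knock-out, against 9.10, 9.15 and 8.39 in Q20 (1.43, SE 0.22, limma adjusted p = 4.91e-05), and Spry2 and Spry4 differed by 1.20 and 1.16. Immediate targets were among the lower: Phlda1 had 5.52 to 7.32 (median 6.58) in the knock-out, against 10.46, 10.47 and 7.84 in Q20 (-3.20, SE 0.61, limma adjusted p = 0.000377), and Egr1 and Ier3 differed by -0.98 and -1.74. Dusp4, a phosphatase of ERK, had 5.38 to 7.37 (median 7.02) in the knock-out, against 11.20, 10.93 and 7.09 in Q20 (-2.89, SE 0.72, limma adjusted p = 0.0036), and Q20 replicate 3 lay within the knock-out range. The ligand Fgf4 was higher by 0.87. Without 1 array the calls of Ier3 (without Q20 replicate 1 or 3, limma adjusted p up to 0.0844) and Fgf4 (without Q20 replicate 1 or 2, limma adjusted p up to 0.139) were lost.

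In the Wnt pathway 2 of 11 were higher and 2 lower, with a median of 0.00, a share of calls near the 38.8% of all genes. Axin2, the usual readout of Wnt signalling, had 4.23 to 5.09 (median 4.36) in the knock-out, against 7.88, 7.58 and 6.42 in Q20 (-2.82, SE 0.35, limma adjusted p = 4.21e-06). Sp5, another target, was lower (-2.50, SE 0.69, limma adjusted p = 0.00708), but Q20 replicate 3 stood at 3.92, under the lowest knock-out array. Without that array the difference was -4.07, and without Q20 replicate 1 or 2 the call was lost (limma adjusted p = 0.0887 and 0.082). Ctnnb1, the gene of beta-catenin, was higher by 0.35.

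Imprinted genes, expressed from 1 parental allele, were mostly lower in the knock-out. Of 27 tested, 19 were lower and 4 higher, with a median of -1.03. Among those expressed from the paternal allele 14 of 15 were lower and none higher, with a median of -1.77. Mest and Nnat lay under 5 on every knock-out array, so the count of lower genes leans on the filter. Beside Mest and Nnat these included Peg10, a retrotransposon-derived gene needed in the placenta, at 3.95 to 6.58 (median 4.49) in the knock-out, against 10.25, 10.47 and 8.44 in Q20 (-4.97, SE 0.74, limma adjusted p = 3.07e-05). Peg3, a zinc finger gene, had 8.61 to 9.42 (median 9.05) in the knock-out, against 12.10, 11.95 and 11.61 in Q20 (-2.87, SE 0.25, limma adjusted p = 9.65e-08). Igf2 (-0.79, adjusted p = 0.359) was the paternally expressed gene that did not pass.

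Maternally expressed genes were divided, with 4 of 9 lower and 2 higher. The non-coding RNAs Rian, Meg3 and Mirg of the Dlk1 domain were lower, at -2.33, -1.11 and -1.06, and Dlk1, which is expressed from the other allele of that domain, by -1.95. Rian had 8.95 to 10.12 (median 9.96) in the knock-out, against 12.50, 12.22 and 11.62 in Q20. Grb10 and Phlda2 were the higher ones, at 3.52 and 1.20. Sfmbt2, a Polycomb-type gene imprinted in mouse extraembryonic tissue, had 4.12 to 6.59 (median 5.63) in the knock-out, against 10.45, 10.58 and 10.72 in Q20 (-5.09, SE 0.57, limma adjusted p = 1.31e-06). Against the controls the knock-out was lower in 4 of the 27 and higher in 1, and Q20 was higher in 17 and lower in 2. Over all genes the knock-out was lower in 8.8% and higher in 7.55%, and Q20 was higher in 16.3% and lower in 10.4%. Allele usage cannot be read from these arrays.

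Of 9 tested genes that set or remove DNA methylation, 3 were higher and 3 lower, with a median of 0.16, against 38.8% of all genes called. The genes of the de novo methyltransferases Dnmt3a and Dnmt3b and of their cofactor Dnmt3l were lower. Dnmt3l had 10.78 to 10.95 (median 10.84) in the knock-out, against 13.05, 13.03 and 13.58 in Q20 (-2.37, SE 0.16, limma adjusted p = 2.29e-09), and Dnmt3b (-2.33, SE 0.21, limma adjusted p = 1.72e-07) and Dnmt3a (-1.64, SE 0.38, limma adjusted p = 0.00198) followed. Maintenance genes went the other way by small amounts, Dnmt1 by 0.29 and Uhrf1 by 0.43. Tet2, which oxidises methylcytosine, had 9.96 to 10.51 (median 10.16) in the knock-out, against 8.63, 8.67 and 8.85 in Q20 (1.47, SE 0.22, limma adjusted p = 3.49e-05), while Tet1 did not pass (0.16, adjusted p = 0.438). The calls of the maintenance genes were lost without single arrays, Dnmt1 (without knock-out replicate 1, 4, 5 or 6 or Q20 replicate 2 or 3, limma adjusted p up to 0.167) and Uhrf1 (without knock-out replicate 5 or Q20 replicate 1 or 2, limma adjusted p up to 0.102). Dnmt3a, Dnmt3b and Dnmt3l were also lower in the knock-out than in the controls, at -1.44, -1.18 and -1.66.

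Germline genes, which promoter methylation keeps silent in many cells, were called about as often as all genes. Of 13 tested, 4 were lower and 1 higher, with a median of -0.19, against 38.8% of all genes called. After centring the chromosomes 4 were lower and 3 higher. Against the controls the knock-out was lower in 7 of the 13 and higher in none (median -0.99, background 8.8% lower), and Q20 was lower in 4 and higher in 1 (median -0.46). Tex19.1, which controls retrotransposons in germ cells, had 8.76 to 9.34 (median 9.14) in the knock-out, against 11.91, 11.82 and 13.22 in Q20 (-3.23, SE 0.40, limma adjusted p = 4e-06). Tdrd12 and Mael, factors of the piRNA pathway, were lower (-2.92, SE 0.30, limma adjusted p = 5.35e-07, and -2.13, SE 0.46, limma adjusted p = 0.00103), and Dazl, an RNA-binding protein of germ cells, differed by -2.10. Piwil2, another piRNA gene, was the higher one (1.65, SE 0.34, limma adjusted p = 0.00068). Single arrays ended the call of Dazl (without knock-out replicate 1, 2, 4 or 6 or Q20 replicate 1 or 3, limma adjusted p up to 0.284).

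Interferon-response and antigen presentation genes were lower in the knock-out. Of 29 listed, 16 were tested, of which 13 were lower and 1 higher, with a median of -1.79. The guanylate-binding proteins, GTPases that interferon gamma induces, showed the largest differences. Gbp2 had 2.20 to 3.66 (median 2.80) in the knock-out, against 10.30, 10.43 and 8.28 in Q20 (-6.76, SE 0.68, limma adjusted p = 4.37e-07), with a probe set that may also detect paralogues. Gbp2b had 2.48 to 2.57 (median 2.54) in the knock-out, against 9.25, 9.06 and 6.99 in Q20 (-5.90, SE 0.54, limma adjusted p = 1.87e-07), and Gbp3 had 3.73 to 4.04 (median 3.91) in the knock-out, against 9.24, 9.02 and 8.38 in Q20 (-4.97, SE 0.48, limma adjusted p = 3.08e-07). All 3 lay at background on every knock-out array and were well expressed on every Q20 array. They passed the filter only through arrays other than the knock-out, as did Psmb8 below, so the count of lower genes leans on the filter.

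These genes lie close together on chromosome 3, and their promoters are shown because they carry the motif of interferon-stimulated response elements, which was searched on both strands as GAAA, any 2 bases and GAAA. They come from RefSeq (GRCm38.p6), all on the plus strand: chr3:142594597-142594896 for Gbp2b, chr3:142620413-142620712 for Gbp2 and chr3:142559794-142560093 for the first of 2 starts of Gbp3. Capitals mark the matches, written on this strand.
Gbp2b: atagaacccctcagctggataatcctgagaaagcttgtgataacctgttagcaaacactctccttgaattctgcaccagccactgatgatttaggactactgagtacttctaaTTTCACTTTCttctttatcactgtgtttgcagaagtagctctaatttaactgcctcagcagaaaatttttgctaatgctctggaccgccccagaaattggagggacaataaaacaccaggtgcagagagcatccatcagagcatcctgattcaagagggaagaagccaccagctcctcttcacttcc
Gbp2: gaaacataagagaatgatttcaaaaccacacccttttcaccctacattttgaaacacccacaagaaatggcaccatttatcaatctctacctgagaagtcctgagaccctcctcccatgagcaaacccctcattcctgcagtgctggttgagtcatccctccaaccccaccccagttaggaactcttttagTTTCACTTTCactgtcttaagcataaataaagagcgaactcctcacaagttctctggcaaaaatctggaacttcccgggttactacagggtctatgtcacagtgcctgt
Gbp3: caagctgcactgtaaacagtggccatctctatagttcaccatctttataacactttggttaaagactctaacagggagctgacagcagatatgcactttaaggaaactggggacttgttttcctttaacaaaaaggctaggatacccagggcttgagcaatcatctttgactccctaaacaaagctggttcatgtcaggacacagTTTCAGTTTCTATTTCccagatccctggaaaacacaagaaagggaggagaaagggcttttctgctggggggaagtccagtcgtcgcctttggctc
The match begins 137 bases before the start in Gbp2b and 59 before it in Gbp2. In Gbp3 there are 2 overlapping matches that begin 45 and 39 bases before the first start, and the promoter of the second start held no match. Over the list, 11 of 24 genes with a promoter in the table held the motif, 6 of them among the 13 lower ones, against 3.44% of all promoters. The motif of STAT factors, TTC, any 3 bases and GAA, was found in 4 of the 24 (Bst2, Ifitm3, Irf1 and Psmb8), against 8.30% of all promoters, each motif counted on its own. Here too genes, which can have several promoters as Gbp3 has, are set beside a share of promoters, which is not the same scale. These matches are descriptions of the sequence and not sites.

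Among the transcription factors, Irf1 was lower, at 8.72 to 9.08 (median 8.97) in the knock-out, against 10.62, 10.64 and 11.05 in Q20 (-1.82, SE 0.23, limma adjusted p = 4.39e-06), and Irf9 was higher (1.15, SE 0.11, limma adjusted p = 3.66e-07). Antigen presentation genes were all lower where tested, 5 of 5. Psmb8, a subunit of the immunoproteasome, had 2.56 to 2.67 (median 2.61) in the knock-out, against 6.78, 6.86 and 6.03 in Q20 (-3.95, SE 0.53, limma adjusted p = 9.62e-06), and Tapbp, which loads peptides onto class I molecules, had 7.37 to 7.96 (median 7.57) in the knock-out, against 10.62, 10.50 and 10.11 in Q20 (-2.81, SE 0.25, limma adjusted p = 1.13e-07). B2m, H2-K1 and H2-D1, the chains of the class I molecule, differed by less, -0.96, -0.94 and -0.66. Parp12, an antiviral gene, was lower (-4.06, SE 0.38, limma adjusted p = 2.38e-07), and Bst2, Ifitm3 and Ifitm1 differed by -1.85, -1.77 and -1.06. The call of B2m (without knock-out replicate 1, 2, 3, 5 or 6 or Q20 replicate 1 or 2, limma adjusted p up to 0.222) was lost with 1 array fewer. Classical interferon-stimulated genes such as Ifit1, Ifit3, Irf7, Mx1, Rsad2 and Usp18 lay below 3 in log2 on all 9 arrays. Against the controls the knock-out was lower in 2 of the 16 and higher in 1, and Q20 was higher in 13 and lower in 1. Over all genes the knock-out was lower in 8.8% and higher in 7.55%, and Q20 was higher in 16.3% and lower in 10.4%.

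Energy metabolism differed by small amounts. Of 49 nuclear-encoded respiratory chain subunits tested, 21 were higher and 2 lower, with a median of 0.18. Over all genes 16.5% were higher and 22.2% lower. Complex IV, cytochrome oxidase, had 7 of 9 higher, with a median of 0.43. Cox5b had 14.02 to 14.28 (median 14.16) in the knock-out, against 12.94, 12.96 and 12.84 in Q20 (1.25, SE 0.14, limma adjusted p = 1.35e-06), and Cox5a had 14.98 to 15.11 (median 15.02) in the knock-out, against 14.59, 14.68 and 14.70 in Q20 (0.38, SE 0.07, limma adjusted p = 0.000139). Cox5b is 1 of 5 higher subunits on chromosome 1, and the 2 lower ones, Uqcrq (-0.83) and Atp5g1 (-0.58), both lie on chromosome 11 and stood at 0.00042 (Uqcrq, adjusted p = 0.998) and 0.25 (Atp5g1, adjusted p = 0.122) after centring. With the chromosomes centred, 25 were higher and none lower, with a median of 0.30 against 0.06 over all genes. The knock-out differed from the controls in 3 of the 49, all lower, and Q20 in 19, all lower. Over all genes 8.8% were lower in the knock-out than in the controls and 10.4% in Q20.

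Of 28 glycolysis and hypoxia-response genes, 6 were higher and 3 lower, with a median of 0.18. That is a smaller share than the 38.8% of all genes called. Egln3, an oxygen-sensing hydroxylase, had 8.77 to 9.55 (median 9.19) in the knock-out, against 6.40, 5.64 and 8.56 in Q20 (2.31, SE 0.56, limma adjusted p = 0.00272), and Vegfa, the angiogenic growth factor, had 7.41 to 8.20 (median 7.83) in the knock-out, against 6.32, 6.28 and 7.25 in Q20 (1.23, SE 0.26, limma adjusted p = 0.000968). In both, Q20 replicate 3 was the highest of the Q20 arrays. Ero1a, on chromosome 14, was higher by 1.07 and did not stay past the threshold after centring (0.44, limma adjusted p = 0.131). P4ha2, a collagen hydroxylase on chromosome 11, was lower, at -1.66. Ldha (0.01, adjusted p = 0.946) and Pgk1 (0.09, adjusted p = 0.575) did not pass the test, and X-linked Pgk1 was called higher after centring (0.60, limma adjusted p = 0.00332).

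Of 22 cholesterol genes tested, 6 were higher and none lower, with a median of 0.21, against 16.5% higher and 22.2% lower over all genes. Mvk (0.63, SE 0.15, limma adjusted p = 0.00218) and Pmvk (0.45, SE 0.11, limma adjusted p = 0.00379), kinases of the mevalonate pathway, were higher. Fdft1, squalene synthase, was higher by 0.62 but lies on chromosome 14 and stood at -0.01 after centring. Nsdhl, Msmo1 and Tm7sf2, enzymes of the later steps, differed by 0.34, 0.60 and 1.26, and their calls were lost without single arrays, Nsdhl (without Q20 replicate 2, limma adjusted p = 0.0801), Msmo1 (without Q20 replicate 3, or after centring the chromosomes, limma adjusted p up to 0.107) and Tm7sf2 (without Q20 replicate 1 or 3, limma adjusted p up to 0.0612). Hmgcs1 (0.22, adjusted p = 0.338) and Sqle (-0.29, adjusted p = 0.181) did not pass, though Sqle was called lower without Q20 replicate 2 (limma adjusted p = 0.0437).

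Of 25 integrated stress response and amino acid genes, 2 were higher and 3 lower, with a median of -0.06. These calls are also a smaller share than the 38.8% over all genes. Mthfd2, a mitochondrial folate enzyme, had 10.32 to 10.53 (median 10.39) in the knock-out, against 11.34, 11.68 and 11.17 in Q20 (-0.99, SE 0.12, limma adjusted p = 4.9e-06), and Asns and Psat1, which make asparagine and serine, differed by -0.57 and -0.25. Shmt2 was higher by 0.59 and Atf5, a stress-induced transcription factor, by 0.45. The call of Atf5 was lost on leaving out any Q20 array or any knock-out array but replicate 4 (limma adjusted p up to 0.132). Likewise the call of Psat1 (without knock-out replicate 1, 2, 3, 5 or 6 or Q20 replicate 1 or 2, or after centring the chromosomes, limma adjusted p up to 0.16) was lost. Atf4 (-0.24, adjusted p = 0.343) and Ddit3 (-0.06, adjusted p = 0.901) did not pass.

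Of 17 p53 targets, 5 were lower and 1 higher, with a median of -0.23, a share of calls near the 38.8% of all genes. Cdkn1a, the cell cycle inhibitor p21, had 8.35 to 9.21 (median 8.85) in the knock-out, against 10.65, 10.35 and 9.28 in Q20 (-1.24, SE 0.32, limma adjusted p = 0.00486), and this call was lost without Q20 replicate 1 (limma adjusted p = 0.0531). Rrm2b, a subunit of ribonucleotide reductase used in repair, was lower (-1.001, SE 0.18, limma adjusted p = 0.000163). Ccng1, cyclin G1 on chromosome 11, was lower, at -1.26 as measured and differed by -0.43 after centring (limma adjusted p = 0.0956). Phlda3, an inhibitor of AKT on chromosome 1, was the higher one, by 0.67, and lost its call after centring (limma adjusted p = 0.551) and without Q20 replicate 3 (0.188). The p53 feedback gene Mdm2 was lower, at -0.57, a call that was also lost (without knock-out replicate 2 or 4 or Q20 replicate 1, 2 or 3, or after centring the chromosomes, limma adjusted p up to 0.147).

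Among 14 tested antioxidant genes under the transcription factor NRF2, 5 passed as higher and 3 as lower, with a median of 0.21, against 38.8% of all genes called. Srxn1, which repairs oxidised peroxiredoxins, had 9.01 to 9.80 (median 9.61) in the knock-out, against 7.83, 7.82 and 7.98 in Q20 (1.63, SE 0.32, limma adjusted p = 0.000409), and Cat, the gene of catalase, had 11.49 to 11.67 (median 11.57) in the knock-out, against 10.67, 10.75 and 10.64 in Q20 (0.88, SE 0.16, limma adjusted p = 0.000183). Tkt, transketolase, was higher by 0.84 but lies on chromosome 14 and lost its call after centring (0.21, limma adjusted p = 0.144). Hmox1, haem oxygenase, was the largest of the lower ones (-0.99, SE 0.20, limma adjusted p = 0.000524).

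Markers of other lineages were mostly below 5. Of 19 primitive endoderm genes, 9 were tested, with 5 lower and 1 higher, against 38.8% of all genes called. Lrp2, the endocytic receptor megalin, had 3.04 to 5.68 (median 4.67) in the knock-out, against 10.28, 9.94 and 9.37 in Q20 (-5.32, SE 0.52, limma adjusted p = 3.65e-07). The matrix genes Sparc (-2.51, SE 0.24, limma adjusted p = 2.37e-07), Lamb1 (-1.84, SE 0.20, limma adjusted p = 1.34e-06), Col4a1 (-2.04) and Col4a2 (-2.90) were lower too, and Lamc1, on chromosome 1, was higher by 0.69 but not after centring (0.21, limma adjusted p = 0.184). The factors that define the lineage, Gata4, Gata6, Sox17 and Sox7, stayed below 5 on all 9 arrays. The summed linear signal of the 18 markers on the array was 4137 to 4973 in the knock-out, 10478 to 16217 in Q20 and 5630 to 8166 in the controls. Of these markers 6 to 8 reached 5 on a knock-out array, 8 on a Q20 array and 8 or 9 on a control array.

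Of 17 trophoblast genes, 9 were tested, with 4 lower and 1 higher, against 38.8% of all genes called. The lower ones were Krt8, Krt18, Rhox6 (-1.53) and Fgfr2 (-1.43). The calls of Rhox6 (without Q20 replicate 3, or after centring the chromosomes, limma adjusted p up to 0.218) and Fgfr2 (without Q20 replicate 3, limma adjusted p = 0.0569) were not kept. Cdx2, Elf5, Hand1 and Gata3 stayed below 5 on all 9 arrays. The summed linear signal of 16 markers on the array, Krt8 and Krt18 among them, was 2536 to 3867 in the knock-out, 5884 to 24321 in Q20 and 2962 to 4053 in the controls, with 4 to 7, 5 to 8 and 5 to 7 of them at 5 or more in the same order. Of 12 neuroectoderm genes, 6 were tested. Nes, the intermediate filament nestin, had 2.36 to 3.54 (median 3.10) in the knock-out, against 7.76, 7.30 and 5.09 in Q20 (-3.65, SE 0.53, limma adjusted p = 2.47e-05), Tubb3 and Sox3 were lower, at -1.01 and -1.74, and Sox1 was the higher one. Of 12 primitive streak and mesoderm genes only Eomes (-0.61, adjusted p = 0.126) and Wnt3 (-0.36, adjusted p = 0.456) were tested. Neither passed, though both did without Q20 replicate 3 (-1.07 and -0.90, limma adjusted p = 0.00967 and 0.0486), and Wnt3 turned to 0.37 without Q20 replicate 2. The part of other cell types in the results above was not tested.

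**Figure D5:**
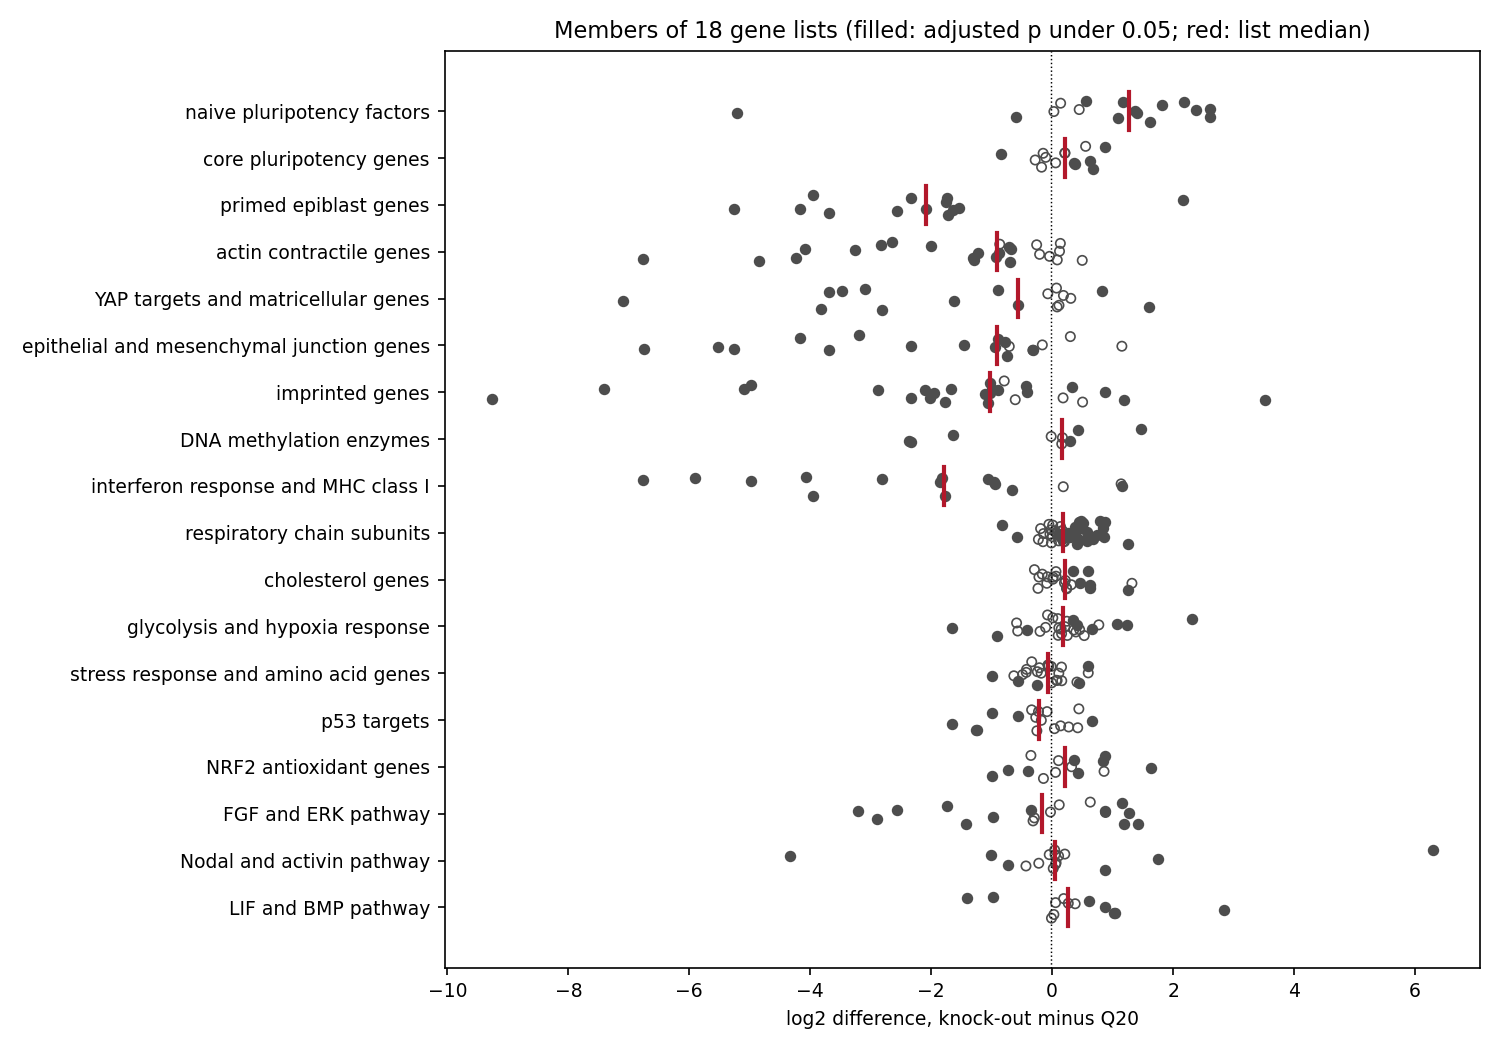
Log2 difference, knock-out minus Q20 (x axis), of the tested members of 18 gene lists (y axis), with filled points for an adjusted p under 0.05 and a red bar at the list median. Medians run from -2.08 for primed epiblast genes to 1.27 for naive pluripotency factors.

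Q20 itself was set against the other knock-in lines, to place the line. Only 79 of the 17980 probe sets were called (0.439%). Over genes, 34 of 9511 were called (0.357%), of which 24 were higher (0.252%) and 10 lower (0.105%) in Q20. Of the 34, 14 lie on chromosome 11, and 13 of these were higher in Q20. Chromosome 11 held 801 of the 9511 genes tested. Against the Q20 mean its medians were -0.04 to 0.01 in Q111 but -0.61 to -0.45 in Q50. The largest difference was in the predicted gene Gm6958, at 11.73, 11.59 and 11.79 in Q20, against 4.95 to 12.61 on the 9 arrays of the other knock-in lines (3.68, limma adjusted p = 4.91e-08). Its means were 12.10 in Q50, 6.41 in Q91 and 5.56 in Q111. Gbp3 was 9.24, 9.02 and 8.38 in Q20, against 3.85 to 9.20 on the 9 arrays of Q50, Q91 and Q111 (2.31, limma adjusted p = 0.0289). Means of Gbp3 were 8.88 in Q20, 4.15 in Q50, 6.65 in Q91 and 8.90 in Q111. Irgm1, another interferon-induced GTPase, was 9.09, 9.02 and 8.07 in Q20, against 4.09 to 8.86 in those lines (2.03, limma adjusted p = 0.0482), and it lay at 3.66 to 3.74 (median 3.72) in the knock-out. Means of Irgm1 were 8.73 in Q20, 4.67 in Q50, 6.97 in Q91 and 8.45 in Q111. In both GTPase genes Q111 thus lay near Q20, and the lower means were those of Q50 and Q91. Rasgrp1, an exchange factor for Ras, was 6.22, 5.43 and 5.66 in Q20, against 2.91 to 5.05 (1.96, limma adjusted p = 0.0358). Mapt, the gene of tau, was the largest difference in the other direction, at 5.79, 6.10 and 7.09 in Q20, against 6.10 to 9.78 (-2.22, limma adjusted p = 0.0187). The choice of Gm6958, Irgm1, Rasgrp1 and Mapt was made on these values.

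The knock-out set against those 9 arrays gave 7697 called probe sets (42.8%). For Mest, knock-out minus the other lines was -8.50, for Tagln -6.87, for Krt8 -5.42, for Klf4 1.82, for Dnmt3l -2.41 and for Inhbb 3.72, each with a limma adjusted p under 0.05. For the same genes knock-out minus Q20 was -9.27, -6.77, -5.52, 1.82, -2.37 and 6.29, and the knock-out arrays are the same in both comparisons. For Nnat the other lines spread over 3.64 to 11.42.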

How the data were processed

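RNA of 24 cultures was measured on single-colour arrays, 9 of them in this comparison. The deposited log2 values come from GCRMA, per the submitters' processing notes, and were used as deposited. Whole-array differences in RNA content are removed by such processing, so differences are relative. Files of array values give no read depth, and the number of arrays limits the precision. The 17980 probe sets that reached 5 on 3 arrays or more were fitted with limma 3.58.1 (R 4.3.3) as group means over all 24 arrays with 18 residual degrees of freedom, two-sided, with Benjamini-Hochberg adjustment over all probe sets tested. The procedure was tested on simulated data with 17980 probe sets, few of them changed. It recovered 32% of log2 differences of 0.5 and 68% of differences of 1, with 10 calls among unchanged probe sets. Many more probe sets were called in the real data, so these shares need not hold there. A gene that did not pass may still differ. Genes were named through the platform annotation, updated with RefSeq: 34945 probe sets had 1 gene, 932 several and 9160 none. The probe set with the highest mean stood for a gene. Motif counts, medians and figures used Python 3.11.15. Named genes are the 15 largest rises and falls with non-overlapping groups, for each list up to 4 members with the smallest p and members singled out by role, and Htt; any other gene was picked on its values. Members and lists alike were chosen with earlier results of these data known. Alternatives covered scaling, filters, single arrays, array sets, array weights, a replicate block and the choice of probe set.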

Additional observations from a re-analysis of the deposited data

Results flagged for a closer look

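In 4 of 52 sets of arrays examined, each of 6 arrays, the highest or lowest array stood far from the rest, with a gap over 0.625 of the whole range. Chance alone gives such a gap in about 1 set in 20. Htt (1425969_a_at) was lowest in knock-out replicate 2, at 6.67, where the other knock-out arrays held 7.27 to 7.39. Parvb was lowest in knock-out replicate 4, at 9.77, against 10.51 to 10.91 on the others, and still above every Q20 array. The median difference of chromosome 6 from the Q20 mean was highest in knock-out replicate 5, at 0.000867, against -0.04 to -0.03 on the other knock-out arrays. That of chromosome 10 was highest in the same array, at 0.0085, against -0.07 to -0.04.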

How the results depend on the processing

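The count of 6575 called probe sets ran from 4469 to 8653 over the alternatives other than the replicate block on 3 and 3 arrays. Leaving out 1 array gave 5010 to 6312 called, 2110 to 2674 higher, 2900 to 3713 lower, 2864 to 3559 genes and 1892 to 2202 probe sets of at least 2-fold. Replicate numbers did not pair the arrays: deviations of same-numbered knock-out and Q20 arrays correlated at -0.02, 0.06 and 0.11, and knock-out replicates 1, 2 and 3 were most like Q20 replicates 3, 2 and 3. A replicate block over all 24 arrays gave 5575 called (2357 higher, 3218 lower). With knock-out and Q20 replicates 1 to 3 only, the block gave 3815 called, 1533 higher and 2282 lower, and 2170 genes. Knock-out replicates 1 to 3 alone gave 1697 higher, and centring each chromosome gave 2320 lower; the first used fewer arrays, and for the second the cause was not tested. Of 184 named genes that were called, 58 lost the call under at least 1 of 22 alternatives. Among the 210 genes named, knock-out replicates 1 to 3 alone ended 25 calls and replicates 4 to 6 alone 22. Bmpr1a and Fdft1 on chromosome 14 turned to -0.017 and -0.0086, and Atp5g1 and Uqcrq on chromosome 11 to 0.25 and 0.00042, when each chromosome was centred. Htt stayed between -0.47 and -0.04 and was not called under any of them. Values below 5 limit the size of the largest differences, and which of genotype, clone and culture history they belong to cannot be told apart in 1 Q20 line.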
